A study of Mus musculus with 17 samples.

Results

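The clustered histone genes make the core histones H2A, H2B, H3 and H4 and the linker histone H1, and they were followed here across all 6 groups of a mouse macrophage RNA-seq series. Members were the protein-coding genes whose symbol starts with Hist1, Hist2, Hist3 or Hist4 and which had at least 1 count in 3 or more of the 17 libraries. By this rule 54 of 67 listed genes were members, among 55401 genes in the table as a whole. RNA came from bone marrow-derived macrophages, which are cells grown from mouse marrow, kept in DMEM with fetal bovine serum. In the C57BL/6J strain there were 3 control libraries, 3 of cells in medium conditioned by B16F10 melanoma cells, 3 of cells in that medium with KCl and 2 of cells in that medium with NaCl. The labels do not say what the control cells were given. The other 6 libraries are from macrophages given the same medium with KCl labelled isotonic, 3 from Kcnj2f/f cells, in which the potassium channel gene Kcnj2 is floxed, and 3 from Lyz2-Cre-Kcnj2f/f cells, in which Cre is made from the myeloid gene Lyz2. Treatment lasted 6 hours, and each salt reached 40 mM. Both isotonic groups thus share the floxed allele, conditioned medium and KCl, and there was no isotonic group without KCl.

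Most clustered histone genes are transcribed in S phase, when new DNA has to be packed into nucleosomes. Their standard mRNAs have no introns and no poly(A) tail: they end just after a short stem-loop, which is bound by the stem-loop binding protein SLBP and cut with the help of the U7 snRNP. Some of these genes also give longer mRNAs that end at a poly(A) site further on, chiefly in cells that have left the cell cycle. The labels name total RNA as the starting material and do not say whether poly(A) RNA was selected, so how well stem-loop-ended mRNAs were captured was not tested. Replacement histones such as H2afz and H3f3b lie outside these clusters and are made throughout the cell cycle with poly(A) tails.

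The stem-loop marks where the standard histone mRNA ends, so it is shown here for the 6 members with a match among the 8 of highest count, whose annotated transcripts all run past it. They were read from GENCODE M21 transcripts (GRCm38), 5′ to 3′ in the sense of the mRNA, with the 16-base match in capitals and 5 bases of flank on each side.
Hist1h1c: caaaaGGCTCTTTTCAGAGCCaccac
Hist3h2a: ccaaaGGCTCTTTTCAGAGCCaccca
Hist2h3c2: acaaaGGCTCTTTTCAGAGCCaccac
Hist1h2bg: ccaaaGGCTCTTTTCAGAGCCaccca
Hist1h4i: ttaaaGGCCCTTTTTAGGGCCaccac
Hist1h4h: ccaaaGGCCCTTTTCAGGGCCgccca
The match in Hist1h1c lies on the plus strand at chr13:23739512-23739527, and 840 annotated bases follow it in the transcript. In Hist3h2a, at chr11:58955172-58955187 on the plus strand, 1643 bases follow. In Hist1h4i, at chr13:22040966-22040981 on the minus strand, 330 bases follow, and in Hist2h3c2, at chr3:96238485-96238500 on the minus strand, 377 follow. Hist1h2bg (chr13:23571843-23571858, plus strand) has 155 bases after its match and Hist1h4h (chr13:23531458-23531473, plus strand) has 46. The letters searched were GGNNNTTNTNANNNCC, in the sense strand of the transcript, within 150 bases after the stop codon. They were found in 40 of the 45 members with at least 16 annotated bases there (88.9%) and in 80 of 21017 other protein-coding genes (0.381%). Hist1h2bc and Hist2h2be, the members ranked 1 and 5 by count, have 742 and 2192 annotated bases after the stop and no match in the window.

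The promoter of Hist1h1c is shown as well, because this linker histone gene fell most in conditioned medium against control. It is the RefSeq sequence of H1f2, the newer name of Hist1h1c (GRCm38.p6, plus strand, chr13:23738557-23738856, 250 bases before to 50 after the start), with the motifs searched in capitals.
Hist1h1c promoter: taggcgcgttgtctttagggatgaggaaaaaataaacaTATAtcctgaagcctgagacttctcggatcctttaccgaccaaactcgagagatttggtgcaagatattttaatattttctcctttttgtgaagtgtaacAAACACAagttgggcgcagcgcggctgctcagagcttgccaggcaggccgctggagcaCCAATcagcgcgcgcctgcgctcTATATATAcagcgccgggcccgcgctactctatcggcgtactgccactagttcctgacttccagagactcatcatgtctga
Motifs were searched on both strands, and overlapping TATA matches were each counted. The letters AAACACA, known from H1 gene promoters as the H1 box, stand in 5 of 49 member promoters and in 7.14% of all 27025 promoters of the same length. CCAAT stands in 40 of the 49 against 37.9% of all promoters, TATA in 44 against 37.4%, and the octamer ATTTGCAT, known from H2B promoters, in 9 against 1.75%. Hist1h1d, the other H1 gene tested, also holds CCAAT, TATA and AAACACA, whereas Hist1h4i and Hist1h4h hold TATA alone among these motifs.

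Library totals ran from 13503869 to 19391623 counts, of which the 54 members together took 1045 to 7288. All 7 macrophage markers on the list used (Adgre1, Csf1r, Cd68, Itgam, Fcgr1, Mertk and Lyz2) passed the low-count filter, and their summed level was 9457 to 33820 CPM (counts scaled to a library of 1e+06) over the 17 libraries. The 5 melanoma markers summed to 0.304 to 1.57 CPM, with Tyr and Dct at 0 in every library, and the 4 B and T cell markers to 0 to 0.663 CPM. Libraries differed in how counts followed transcript length, given here as the length slope, the change in log2 level per doubling of a gene's exon length against the mean of all libraries. It was 0.0317 to 0.123 in the control and conditioned medium libraries, 0.0751 and 0.121 with NaCl, −0.0818, −0.109 and 0.00625 in KCl libraries 1, 2 and 3, 0.115, −0.172 and −0.1 in floxed libraries 1, 2 and 3, and −0.151, −0.133 and −0.0151 in knockout libraries 1, 2 and 3. KCl library 2 stood apart in RNAs that carry no poly(A) tail: a list of 9 of them, led by Rn7sk, summed to 76.9 CPM there and to 1.6 to 8.77 CPM in the other libraries. Some results with KCl are also given without this library.

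Counts lay in a few members. Hist1h2bc, which encodes an H2B, had 17351 counts over the 17 libraries, 41.2% of all histone counts. Hist1h1c, which encodes the linker histone H1.2, had 15241 (36.2%), Hist3h2a, which encodes an H2A, had 3168 (7.52%), and Hist1h4i, which encodes H4, had 2062 (4.9%). The next were Hist2h2be (811 counts), Hist2h3c2 (635), Hist1h4h (397) and Hist1h2bg (303), and these 8 made up 94.9% of the sum. In contrast, 40 of the 54 members had fewer than 100 counts in all libraries together. By class, the 15 H2B members held 45% of histone counts, the 5 H1 members 36.8%, the 11 H2A members 8.85%, the 13 H4 members 6.97% and the 10 H3 members 2.39%. Per kilobase of exon, which allows levels to be compared between genes, mean TMM-scaled CPM in control was 106.4 for Hist1h1c, 77.7 for Hist1h2bc, 9.78 for Hist1h4i and 7.61 for Hist3h2a.

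The members with many counts were mostly those with a long annotated 3′ end. With at least 300 annotated bases after the stop codon there were 21 members, among them 6 of the 8 of highest count, with a median of 85 counts and a sum of 40531. With fewer there were 33 members, with a median of 18 counts and a sum of 1584. These counts were not scaled by length, and a longer annotated end adds exon in which reads can be counted. The part of exon length in this difference was not tested. In each library the 21 long-ended members took 92.3% to 97.9% of histone counts. Hist1h2bc and Hist2h2be, which have no stem-loop match, are among these 21. The members are called clustered histone genes below.

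**Figure D1:**
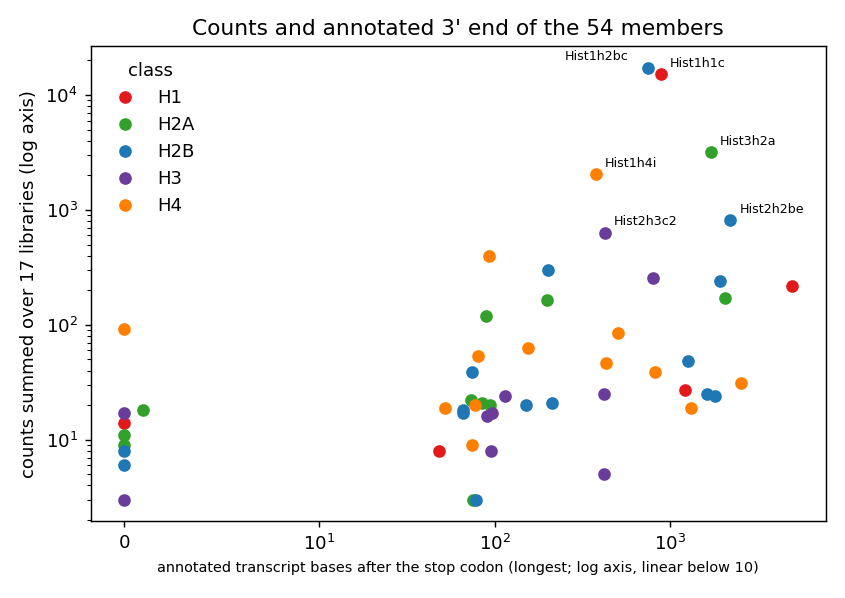
Counts summed over 17 libraries (log axis) against the longest annotated stretch after the stop codon in bases (log axis, linear below 10), 1 point for each of the 54 members, coloured by histone class. Hist1h2bc and Hist1h1c (17351 and 15241 counts) lie at 742 and 880 bases, and members with fewer than 300 bases reach at most 397 counts.

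Members are near-copies of each other, which limits single-gene values. Over windows of 50 bases, 40 members shared more than 20% of their sequence with other genes on the list and 10 shared more than 80%. Hist1h1c shared 8.54%, Hist3h2a 2.0% (31.5% with any gene) and Hist2h2be 0%, while Hist1h2bc shared 29.4%, Hist1h4i 28.9%, Hist1h4h 45.8%, Hist1h2bg 49.7% and Hist2h3c2 63.5%, so how the counting split reads among the last 5 is uncertain. Exons of 14 members overlap another gene, 4 of them on the same strand, among them Hist3h2a with Trim17, and strand use in counting is not given in the sources used here. Of the 13 genes that were not members, 8 had 0 counts in every library, and 5 of these 8 (Hist2h2aa1, Hist2h2aa2, Hist2h2bb, Hist2h3b and Hist2h3c1) share all of their windows with another gene. Just inside the rule, Hist1h2ag, Hist1h2bk and Hist1h3h had 3 counts each and Hist1h3f had 5, in 3 libraries each. Just outside it, Hist1h1t had 2 counts and Hist1h2an had 3, in 2 libraries each.

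The summed share of the 54 members was far higher in control than elsewhere. It was 401.8, 404.2 and 391.9 CPM of the library total in control libraries 1, 2 and 3, and 86.9, 90.5 and 78.9 in conditioned medium. With KCl it was 118.5, 129.9 and 90.4, and with NaCl 74.7 and 76.6. In isotonic KCl it was 61.5, 104 and 93.3 in floxed cells and 99.8, 94.7 and 80.5 in knockout cells. Every control library lay above every library in conditioned medium. By these totals the 2 isotonic groups overlapped each other and the conditioned medium group, and KCl library 3 lay within the conditioned medium range. With TMM-scaled totals the sum was 132.8, 156.4 and 96.32 in KCl libraries 1, 2 and 3. All 3 then lay above the conditioned medium libraries, at 84.83, 87.25 and 75.5. The NaCl libraries, at 75.85 and 76.68, then lay within that range, and control was still highest at 298 to 308.9. No test was made on this sum. In bulk RNA, fewer cells that make a transcript and less of it per cell cannot be told apart.

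**Figure D2:**
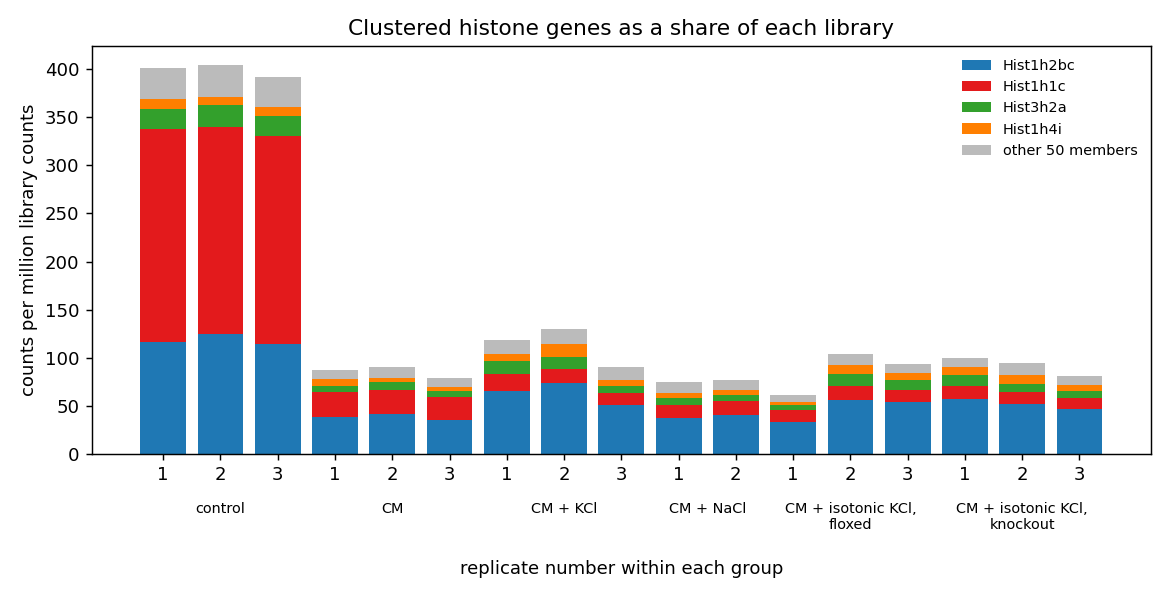
Summed level of the 54 members, in CPM of the library total, in each of the 17 libraries, stacked by the 4 members of highest count and the other 50 together. Control libraries reach 391.9 to 404.2, with Hist1h1c (red) the largest part, and the other libraries reach 61.5 to 129.9, with Hist1h2bc (blue) the largest part.

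The makeup of the sum differed too. In control libraries Hist1h1c gave 53.5% to 55.2% of histone counts. Its part was 27.7% to 29.3% in conditioned medium, 11.2% to 14.9% after KCl, 17.5% and 18.8% after NaCl, and 13.4% to 21.1% in the isotonic libraries. For each count of Hist1h1c there were 0.523 to 0.574 counts of Hist1h2bc in control libraries. The corresponding ratio was 1.51 to 1.65 for conditioned medium, 3.66 to 5.02 for KCl and 2.8 and 2.84 for NaCl. The ranges of these 4 groups did not overlap for this ratio, but the isotonic libraries, at 2.5 to 4.27, spanned the NaCl values and overlapped KCl. Both genes were counted in the same libraries, so library size does not enter the ratio, but their exon lengths differ (1560 and 1156 bases) and whether the length slope enters it was not tested. H4 members gave 3.12% to 4.16% of histone counts in control and 6.99% to 16.1% in the other groups.

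Conditioned medium was compared with control, for which the labels do not say what the cells were given. Clustered histone transcripts fell: 13 of the 16 members tested were lower in conditioned medium and 0 were higher, with Hist1h1c falling most, while 26.4% of all 14519 genes tested were lower (edgeR's quasi-likelihood test, adjusted p under 0.05; 53.5% were called in either direction). The median log2 fold change of the 16 was −1.51, against −0.04 over all genes tested. The other 38 members did not pass the low-count filter. A member could pass it through high control values alone, and for 5 of the 16 no conditioned medium library was above the filter's level. Of the 7 members above that level in all 6 libraries, 5 fell (Hist1h1c, Hist1h2bc, Hist3h2a, Hist2h2be and Hist2h3c2). Libraries of both groups did not overlap for 14 of the 16 members (87.5%), and for 68.1% of all genes. The macrophage marker sum by library totals was 33050 to 33820 CPM in control and 26020 to 27470 CPM in conditioned medium. Of its 7 genes, 3 were lower and 1 was higher. TMM scaling used a larger factor for each control library (1.309 to 1.319) than for any library in conditioned medium (1.024 to 1.044). The macrophage sums alone thus do not show a fall. The fibroblast marker sum, also by library totals, went from 640 to 816 CPM to 425 to 486 CPM with 0 of 4 genes called. Of the 9 neutrophil and progenitor markers, whose sum went from 9.72 to 11.7 CPM up to 19.3 to 23 CPM, 5 were tested: S100a8 and Camp were higher (log2 1.70 and 2.18) and Ltf was lower (−4.50). The part of these markers in the histone result was not tested.

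Of the linker histones, Hist1h1c stood at 168, 165 and 164 TMM-scaled CPM in control libraries and at 24.9, 24.2 and 22.1 in conditioned medium. All control libraries were above all conditioned medium libraries. The fall was 7.03-fold (log2 fold change −2.81, SE 0.12, adjusted p = 1.59e-10 by edgeR), and 1.25% of all genes tested had a lower fold change. Hist1h1d, which encodes H1.3, had 35, 52 and 36 counts in control and 9, 4 and 3 in conditioned medium (log2 fold change −2.42, SE 0.49, adjusted p = 0.000981). The other 3 H1 members had too few counts to test: Hist1h1e had 15 counts in the 3 control libraries together, Hist1h1b had 9 and Hist1h1a had 4.

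Of the H2A genes, Hist3h2a fell from 15.7, 17.1 and 16.3 TMM-scaled CPM to 6.57, 7.69 and 6.11 (log2 fold change −1.27, SE 0.21, adjusted p = 0.000197 by edgeR). Hist1h2ad, at 11, 11 and 20 counts in control and 1, 2 and 3 in conditioned medium, and Hist1h2ac, at 15, 22 and 32 counts against 5, 5 and 9, were also called lower. Hist1h2ac lost its call when control library 2 or 3 or conditioned medium library 1 or 2 was left out (adjusted p = 0.0647 to 0.137). Hist1h2ae, at 5, 8 and 7 counts in control and 5, 15 and 4 in conditioned medium, had a log2 fold change of 0.75 (SE 0.62) and was not called.

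Of the H2B genes, Hist1h2bc fell from 88, 94.9 and 86.8 to 37.6, 39.8 and 33.9 TMM-scaled CPM, a 2.43-fold change (log2 −1.28, SE 0.14, adjusted p = 3.5e-06 by edgeR). Hist2h2be fell from 5.6, 5.81 and 6.74 to 1.83, 1.97 and 2.33 (log2 −1.57, SE 0.21, adjusted p = 2.42e-05), and it shares no 50-base window with the rest of the list. No library of 1 group reached the range of the other for either gene. Hist1h2be and Hist1h2bg, both of lower count, were lower with log2 fold changes of −1.64 (SE 0.47) and −1.32 (SE 0.39). Hist1h2bg lost its call without conditioned medium library 3 (adjusted p = 0.053).

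Both H3 genes tested fell. Hist2h3c2 went from 3.67, 3.69 and 2.59 TMM-scaled CPM in control to 1.26, 1.48 and 0.756 (log2 fold change −1.51, SE 0.34, adjusted p = 0.00198 by edgeR), and Hist1h3d from 29, 48 and 27 counts to 5, 12 and 9 (log2 −1.50, SE 0.40). H4 genes differed among themselves. Hist1h4i, the H4 gene with the most counts, stood at 7.94, 6.61 and 6.78 TMM-scaled CPM in control and at 6.82, 4.3 and 4.71 in conditioned medium, ranges that overlap, and was not called (log2 −0.44, SE 0.29, adjusted p = 0.231). Hist1h4h, at 1.33, 1.36 and 0.904 against 0.632, 0.738 and 0.756, was not called either (log2 −0.75, SE 0.45, adjusted p = 0.181). Hist1h4j, at 10, 11 and 6 counts against 1 in each conditioned medium library, and Hist1h4k, at 13, 7 and 11 against 1, 3 and 0, were called lower. Hist1h4k lost its call without control library 1 or conditioned medium library 1 or 3 (adjusted p = 0.0558 to 0.0655), and Hist1h4j with no low-count filter (0.0533).

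Scaling by library totals alone moved the median log2 fold change of all genes in this comparison from −0.04 to −0.37, and the share of called genes that were higher from 50.8% to 24.9%. Members called were then 0 higher and 15 lower, where 60.7% of all genes were called in either direction. The added ones were Hist1h4h and Hist1h4i. With the length slope as a covariate, Hist1h1c was at −2.89 and Hist1h2bc at −1.41, both still called, and 15 members were lower, where 61.2% of all genes were called in that fit.

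**Figure D3:**
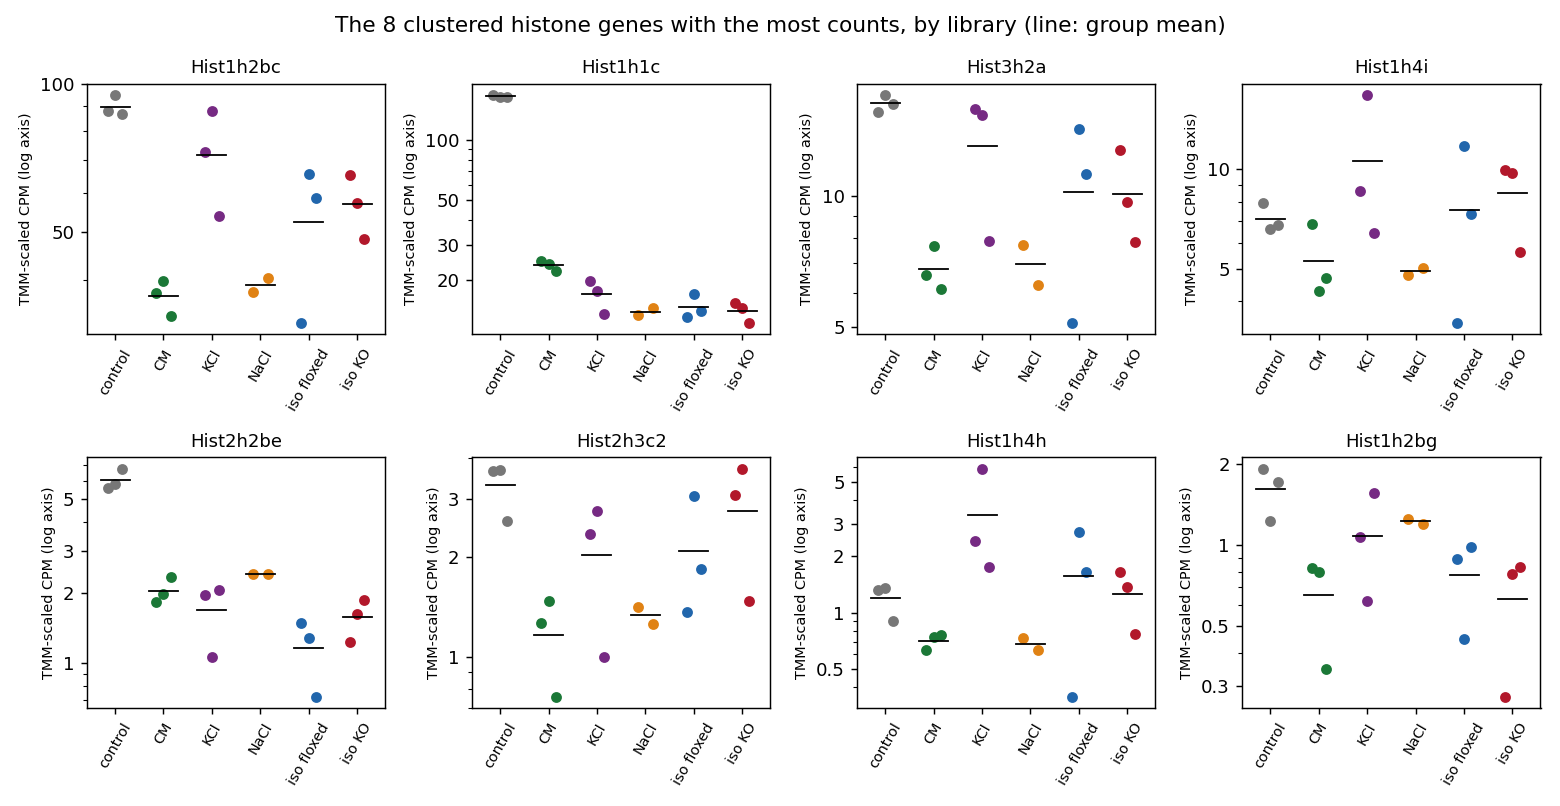
TMM-scaled CPM (log axis) of the 8 members of highest count, 1 point per library and a line at each group's mean; CM is conditioned medium, KCl and NaCl are CM with that salt, and iso floxed and iso KO are CM with isotonic KCl. Hist1h1c lies at 164 to 168 in control and at 12.2 to 24.9 in every other library, while Hist1h4i spreads from 3.45 to 16.8, with control, KCl and iso KO each above NaCl and the other ranges overlapping.

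Genes that work with these histones were counted from lists chosen for their known roles. Of all genes tested in conditioned medium against control, 26.4% were lower and 27.2% were higher. Of the DNA replication list, 28 of 30 genes tested were lower in conditioned medium and 0 were higher; the replicative helicase subunits Mcm6 and Mcm7 had log2 fold changes of −1.80 and −1.82, and the S-phase transcription factor E2f2 had −3.47. Of the mitosis list 9 of 12 were lower and 1 was higher, and of the histone chaperones 8 of 21 were lower and 3 were higher. Histone mRNA processing and control was mixed: of 22 tested, 8 were lower and 5 were higher. Cyclin E2 (Ccne2, −1.67), the uridylyltransferase Tut4 (−1.48) and Npat, the coactivator of these gene clusters that cyclin E and CDK2 phosphorylate (−0.67), were among the 8 lower. The 5 higher were Cdc25a (0.92), Lsm10 (0.45), Cpsf2 (0.40), Eri1 (0.26) and Tut7 (0.22). Slbp, at 53.3, 56.9 and 50.6 TMM-scaled CPM in control and 54.1, 57.8 and 52.4 in conditioned medium, was not called (log2 0.02, SE 0.11). Of 11 replacement histone genes, 2 were lower (H2afv −1.66, and Cenpa, the centromeric H3, −1.32) and 1 was higher (H3f3a, 0.65). Scaling by library totals alone called 60.7% of all genes, and 24.9% of the called genes were higher. These list counts, higher and lower, were then 0 and 30 for replication, 1 and 11 for mitosis and 1 and 15 for chaperones. They were 1 and 12 for processing and 1 and 9 for replacement histones.

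Added KCl was compared with conditioned medium alone. Of the 16 members tested, 6 were higher and 1 was lower, where 26.6% of all genes were higher and 27.4% lower (53.9% called). The median log2 fold change of the 16 was 0.93, against −0.01 over all genes. Hist1h2bc rose from 37.6, 39.8 and 33.9 TMM-scaled CPM to 72.6, 88.2 and 53.9, with no overlap (log2 0.93, SE 0.14, adjusted p = 8.96e-05 by edgeR). Hist1h1c went the other way, from 24.9, 24.2 and 22.1 to 19.8, 17.6 and 13.5 (log2 −0.50, SE 0.12, adjusted p = 0.00316), again with no overlap. Libraries of both groups did not overlap for 8 of the 16 members, and for 56.7% of all genes. The core histone gene of highest count and the linker histone gene of highest count thus moved in opposite directions.

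The other 5 that rose had fewer counts. Hist3h2a stood at 15.9, 15.3 and 7.88 TMM-scaled CPM with KCl, all above the highest conditioned medium library at 7.69 but library 3 barely so (log2 0.92, SE 0.22, adjusted p = 0.00316 by edgeR). Hist1h4h stood at 2.42, 5.89 and 1.75, all above the conditioned medium range of 0.632 to 0.756 (log2 2.18, SE 0.43, adjusted p = 0.000869), and without KCl library 2 its log2 fold change was 1.54. Hist1h4i stood at 8.6, 16.8 and 6.44, and its lowest library lay within the conditioned medium range. Its call (log2 0.97, SE 0.30, adjusted p = 0.0152) was lost without conditioned medium library 2 or 3 or KCl library 2 (adjusted p = 0.0524 to 0.0611). Hist1h2ad had 10, 15 and 6 counts with KCl against 1, 2 and 3 (log2 2.57, SE 0.68), and Hist1h4k had 7, 12 and 9 against 1, 3 and 0 (log2 2.95, SE 0.75). For both genes no conditioned medium library was above the filter's level. Of the 7 members above that level in all 6 libraries, 4 were higher and 1 was lower. Hist2h3c2 was at 2.35, 2.76 and 1 TMM-scaled CPM (log2 0.77, SE 0.37, adjusted p = 0.1), and Hist2h2be at 1.95, 1.07 and 2.06 (log2 −0.25, SE 0.25), and neither was called.

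The length slope was lower in each KCl library than in each conditioned medium library. Of the 4 fibroblast markers 3 were also lower with KCl, with a sum by library totals of 163 to 356 CPM against 425 to 486. Of the 7 macrophage markers 3 were lower and 1 higher (20160 to 25870 against 26020 to 27470 CPM by library totals). TMM factors were 0.8305 to 0.9385 with KCl and 1.024 to 1.044 in conditioned medium, so the macrophage sums alone do not show a fall. Both tested RNAs without a poly(A) tail were higher, Rn7sk at 3.22, 82.1 and 4.06 TMM-scaled CPM in KCl libraries 1, 2 and 3 against 1.48 to 2.78 (log2 3.81) and Rpph1 at 0.873, 9.01 and 0.875 against 0.465 to 0.632 (log2 2.56). KCl library 2 was also the highest of the 17 for Hist1h4h and Hist1h4i. The part of these markers and RNAs in the histone result was not tested. With the slope as a covariate, a fit that called 35.5% of all genes, 1 member was higher and 1 was lower: Hist1h2bc at 0.43 (adjusted p = 0.0208) and Hist1h1c at −0.79 (adjusted p = 0.000395), by edgeR. Under it Hist3h2a was at 0.13, Hist1h4h at 0.73, Hist1h2ad at 1.66, Hist1h4k at 2.34 and Hist1h4i at −0.02 (adjusted p = 0.134 to 0.977). With KCl library 3, whose slope of 0.00625 is nearest to the conditioned medium range, as the only KCl library, 4 members were higher (Hist1h2bc, Hist1h4h, Hist1h4k and Hist1h2bg) and 1 was lower, with Hist1h2bc at 0.54 (adjusted p = 8.59e-05) and Hist1h1c at −0.81 (adjusted p = 4.13e-06), where 47.2% of all genes were called; the lone sample is then assumed to vary like the other groups. Without KCl library 2, 5 were higher and 1 was lower, where 52.1% of all genes were called. Scaling by library totals alone gave 6 higher and 1 lower, where 55.2% of all genes were called. The median over all genes was then −0.22, and 32.6% of called genes were higher instead of 49.3%.

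**Figure D4:**
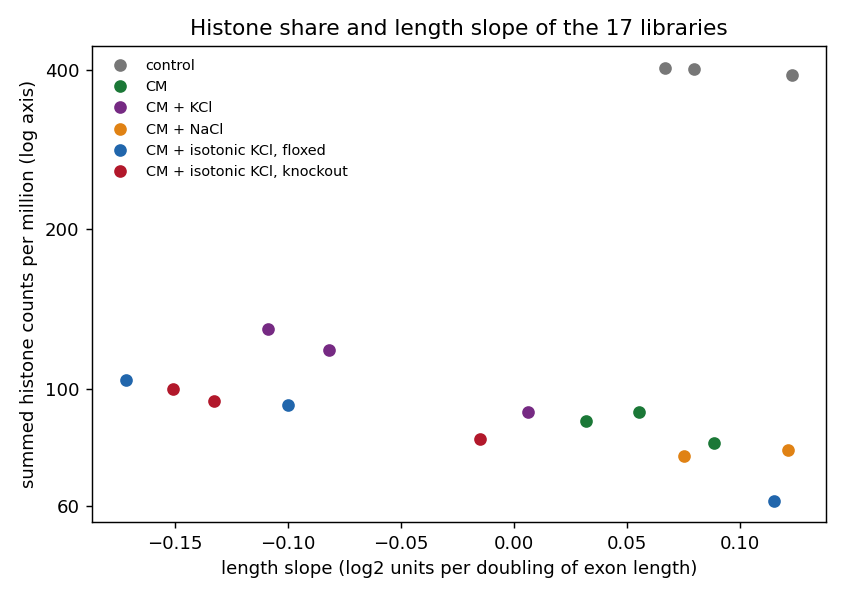
Summed histone level in CPM (log axis) against the length slope (log2 units per doubling of exon length) for the 17 libraries, coloured by group. Within KCl, floxed and knockout cells the library with the highest slope (0.00625, 0.115 and −0.0151) has the lowest share (90.4, 61.5 and 80.5), and the control libraries stand apart at 391.9 to 404.2.

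Among the partner lists, KCl raised 12 of 30 replication genes and lowered 2, where 26.6% of all genes were higher and 27.4% lower. Pcna, the sliding clamp, had a log2 fold change of 1.02 and Mcm7 0.97. Of the histone chaperones 9 of 21 were higher and 5 were lower, led by Nasp, which binds H1 and H3-H4, at 2.01. Of the replacement histones 6 of 11 were higher, among them H2afv (1.54) and H2afz (1.34), and 2 were lower, H1f0, the linker histone of non-dividing cells (−1.14), and H2afy, a macroH2A (−0.64). Of the processing list 8 of 22 were higher, among them Slbp (0.59) and the 3′ exonuclease Eri1 (0.57), and 5 were lower, among them the cleavage factor genes Cstf2 (−1.38) and Cpsf3 (−1.16). Of the mitosis list 2 of 12 were higher and 1 was lower. The fit with the slope as a covariate called 35.5% of all genes. The counts higher and lower were then 8 and 0 for replication, 7 and 2 for chaperones and 3 and 2 for replacement histones. They were 6 and 3 for processing and 0 and 0 for mitosis.

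Added NaCl was compared with conditioned medium alone. Of 16 members tested, 0 were higher and 1 was lower, where 13.7% of all genes were higher and 14.9% lower (28.7% called), and 2 of the 16 had an unadjusted p under 0.05. DESeq2 also called 0 higher and 1 lower, where it called 30.1% of all genes. Libraries did not overlap for 5 of the 16, and for 60.7% of all genes. The member that fell was Hist1h1c, at 13.3 and 14.4 TMM-scaled CPM against 22.1 to 24.9 in conditioned medium (log2 −0.77, SE 0.13, adjusted p = 0.000811 by edgeR). Hist1h2bc stood at 37.8 and 40.4, within or just above the conditioned medium range (log2 0.08, SE 0.16), Hist3h2a at 7.7 and 6.23 (0.05, SE 0.25) and Hist1h4i at 4.82 and 5.03 (−0.09, SE 0.34). Hist1h2bg stood at 1.26 and 1.2, above the highest conditioned medium library at 0.821, but was not called (log2 0.92, SE 0.44, adjusted p = 0.146). Among the markers, Fcgr1 (−1.18) and Adgre1 (−0.47) of the 7 for macrophages were lower, Camp (−1.38) of the 5 tested for neutrophils and progenitors was lower, and Pdgfra (0.67) of the 4 for fibroblasts was higher. By library totals, the macrophage sums with NaCl and without were 25400 and 25580 against 26020 to 27470 CPM. The neutrophil and progenitor sums were 21.3 and 24 against 19.3 to 23 CPM, and the fibroblast sums 385 and 449 against 425 to 486 CPM. TMM factors were 0.9844 and 0.9993 with NaCl and 1.024 to 1.044 without. The part of these markers in the histone result was not tested. Scaling by library totals alone left 0 higher and 1 lower, where 27.7% of all genes were called. The share of called genes that were higher went from 48% to 37%.

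Partner genes moved with NaCl as follows, where 13.7% of all genes were higher and 14.9% lower. Of the replication list 7 of 30 were higher and 0 lower, of the chaperones 8 of 21 were higher and 0 lower with Nasp at 1.37, and of the processing list 9 of 22 were higher and 3 lower. Of the replacement histones 0 of 11 were higher and 2 were lower, H1f0 (−1.34) and H2afy (−0.78). Of the mitosis list 1 of 12 was higher. The KCl and NaCl comparisons share the 3 conditioned medium libraries. Side by side, Hist1h1c was at −0.50 and −0.77, H1f0 at −1.14 and −1.34, and Hist1h2bc at 0.93 and 0.08.

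The difference between the salts was tested directly. In KCl against NaCl, 4 of 16 members were higher and 0 were lower, where 15.4% of all genes were higher (31.6% called). They were Hist1h4h (log2 2.22, SE 0.49, adjusted p = 0.00615 by edgeR), Hist1h4i (1.06, SE 0.34, adjusted p = 0.0318), Hist3h2a (0.87, SE 0.25, adjusted p = 0.0181) and Hist1h2bc (0.85, SE 0.16, adjusted p = 0.00271). Each KCl library lay above both NaCl libraries for all 4 genes, and libraries did not overlap for 6 of the 16 members against 51.1% of all genes. Hist1h1c was not called (0.27, SE 0.14, adjusted p = 0.143). Of the fibroblast markers 3 of 4 were lower with KCl (163 to 356 against 385 and 449 CPM by library totals). Of the macrophage markers 2 of 7 were lower and 1 was higher (20160 to 25870 against 25400 and 25580 CPM by library totals). TMM factors were 0.8305 to 0.9385 with KCl and 0.9844 and 0.9993 with NaCl, so the macrophage sums alone do not show a fall. The part of these markers in the histone result was not tested. None of the 4 calls was made when these 5 libraries were fitted alone (adjusted p = 0.0668 to 0.114), a fit that called 8 of 13367 genes (0.0598%), nor with the length slope as a covariate, a fit that called 1.61% of all genes, where Hist1h2bc was at 0.18 (adjusted p = 0.691). Members called ranged from 1 without NaCl library 2 (6.97% of all genes called) and 2 without NaCl library 1 (14.9%) to 7 without KCl library 3 (48.2%). Hist1h2bc kept its call without each of the 5 libraries. Hist1h4h lost it without NaCl library 2 (adjusted p = 0.0676) and stood at 1.59 without KCl library 2. Hist3h2a lost its call without KCl library 1 or either NaCl library (adjusted p = 0.057 to 0.149), and Hist1h4i without KCl library 2 or either NaCl library (0.0638 to 0.139). With KCl library 3 alone, 1 was called (16.4% of all genes), Hist1h2bc at 0.46 (adjusted p = 0.0038). By library totals alone the median over all genes was −0.18 and the called share that was higher 30.1% instead of 48.6%. Of the members 4 were still higher and 0 lower, where 34.9% of all genes were called.

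**Figure D5:**
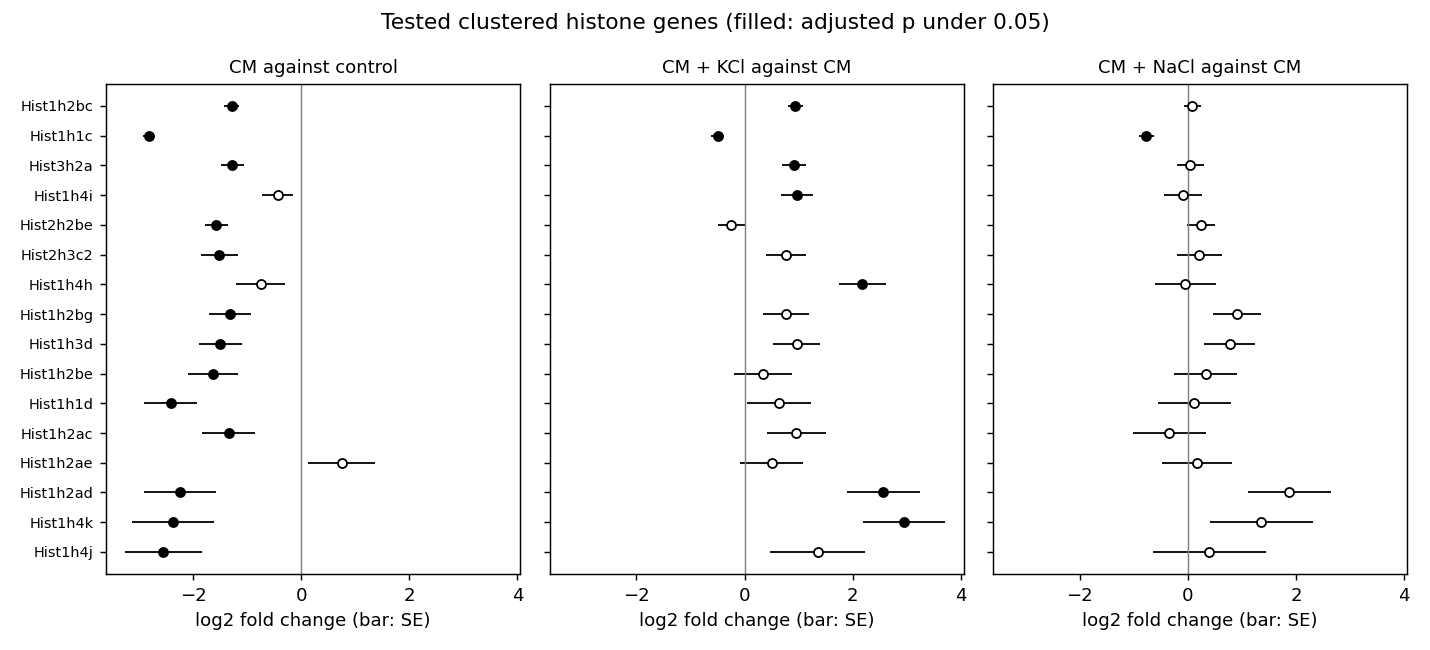
Log2 fold changes with SE (bars) of the 16 members tested, ordered by total count, in 3 comparisons; filled points have an adjusted p under 0.05 and CM is conditioned medium. Filled points lie below 0 for 13 members in CM against control; with KCl 6 lie above and Hist1h1c below 0, and with NaCl Hist1h1c alone is filled.

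Of the partner lists in KCl against NaCl, 6 of 11 replacement histones were higher and 0 lower, with H2afv at 1.36 and H2afz at 1.08. Of all genes, 15.4% were higher and 16.2% lower. Of the replication list 7 of 30 were higher and 1 lower, of the chaperones 5 of 21 higher and 4 lower, of the processing list 3 of 22 higher and 3 lower, and of the mitosis list 2 of 12 higher and 1 lower. The fit with the slope as a covariate called 1.61% of all genes. These counts were then 0 and 0 in 4 of the 5 lists, and 1 and 0 for the chaperones. With so few genes called, this says nothing particular about the lists.

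The Kcnj2 knockout was checked first on its target. Kcnj2 is the gene of the potassium channel Kir2.1, an inward rectifier, and had 2910, 1853 and 2238 counts in floxed libraries 1, 2 and 3 and 287, 374 and 458 in knockout libraries 1, 2 and 3 (log2 fold change −2.64, SE 0.19, adjusted p = 0.015 by edgeR). The libraries of both groups did not overlap. Of the 9 members tested 0 were called, but so few genes were called in this fit, 0.0156% of all 12782 (0.00782% higher and 0.00782% lower), that this says nothing particular about the members; 0 of the 9 had an unadjusted p under 0.05. DESeq2 also called 0, where it called 1.38% of all genes. Hist1h2bc stood at 32.7, 65.6 and 58.7 TMM-scaled CPM in floxed and 65.3, 57.2 and 48.4 in knockout libraries (log2 0.12, SE 0.27), and Hist1h1c at 13.1, 17.1 and 13.9 against 15.3, 14.5 and 12.2 (log2 −0.06, SE 0.16). Log2 fold changes of the 9 ran from −0.30 for Hist1h2bg to 0.45 for Hist2h2be, and the libraries overlapped for every one of the 9, while 11.2% of all genes did not overlap. The macrophage marker sum was 23420 to 24810 CPM in floxed and 9457 to 11140 CPM in knockout libraries, with 0 of its 7 genes called; Lyz2, which carries Cre in the knockout, was at −1.55 (adjusted p = 0.0593) and the other 6 lay between −0.31 and 0.40. The 4 fibroblast markers lay between −1.21 and −0.97, with 0 called, and summed to 118 to 400 CPM in floxed and 85.5 to 161 CPM in knockout libraries. The part of these markers in the histone values was not tested. Floxed library 1, with a slope of 0.115, was lowest of the 3 floxed libraries for Hist1h2bc, Hist3h2a, Hist1h4i and Hist1h4h.

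In all of the partner lists 0 genes were called between knockout and floxed cells, where 0.0156% of all genes were called. Because the isotonic libraries differ from the C57BL/6J libraries in strain and carry no group without KCl, no test was made across them. Their Hist1h1c levels of 12.2 to 17.1 TMM-scaled CPM lay within or just below the range of the KCl and NaCl groups, 13.3 to 19.8. By mean level, Hist1h1c ranked control (165.9 ± 2.03, SD, n = 3), conditioned medium (23.7 ± 1.45, n = 3), KCl (17 ± 3.2, n = 3), floxed isotonic KCl (14.7 ± 2.1, n = 3), knockout isotonic KCl (14 ± 1.61, n = 3) and NaCl (13.9 ± 0.778, n = 2). The last 4 groups had ranges that overlapped each other.

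The 38 members not tested had few counts, and whether their transcripts were scarce or poorly captured was not tested. Together they had 122, 105 and 104 counts in control libraries 1, 2 and 3, 34 to 52 in conditioned medium libraries, 30 to 56 after KCl, 40 and 43 after NaCl and 20 to 43 in the isotonic libraries. At least 1 count was found for 26 to 33 of the 38 in each control library and for 11 to 21 in the others, so control libraries lay above the rest in both measures. Hist1h1b had 9 counts in control and 0 in all libraries of conditioned medium, KCl and NaCl, and Hist1h2bj had 14 in control and 0 in conditioned medium and both isotonic groups. Hist1h2bp had 8 in control, 0 in conditioned medium, KCl and NaCl, and 10 in floxed libraries. A count of 0 in a library allows up to 3 counts there by counting error alone.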

How the data were processed

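Per the file headers, the authors' deposited table gives a raw count for each Ensembl gene in each library; the submitters' processing notes name DESeq2 1.30.1 with no role. The sources used here give no aligner, counter, build or strand setting. Symbols, exon lengths and transcripts came from GENCODE M21 (GRCm38), promoters from RefSeq. Identifiers without a symbol (260) held 0.0121% of counts.

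Counts were tested with edgeR 4.0.16 in R 4.3.3 (quasi-likelihood F test, robust, TMM, default low-count filter with a minimum of 10 counts). The 11 C57BL/6J libraries shared 1 fit and the 6 isotonic ones another; p-values were adjusted by Benjamini-Hochberg over all genes tested, threshold 0.05. SE is that of a log2 fold change. TMM-scaled CPM was computed over 17 libraries. The length slope used log2(CPM + 0.5) of genes with a mean CPM of at least 1. The test was first tried on simulated counts.

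Members and lists were chosen with earlier results of these data known. Named genes were the 8 members of highest count, the 6 highest and 6 lowest called members per comparison, members at 0 in a whole group, any histone mRNA processing gene, and up to 4 genes by smallest p of the replacement, replication and chaperone lists. Hist1h3d, Hist1h2ac and Hist1h2ae were named after their values were seen. No label says that replicates are separate animals or cultures, and the spread behind each p-value may be technical. All 16 replicate pairs differed beyond sampling noise (chi-square divided by its degrees of freedom, 2.08 to 146). Alternatives were DESeq2 1.42.0, RLE factors, library totals alone, no filter or a stricter one, a replicate block, the length slope as a covariate, the 2 compared groups alone, and leaving out each library. KCl library 3 as the only KCl library was added after seeing the data.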

Additional observations from a re-analysis of the deposited data

How the results depend on the processing

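Depth limits these results: 40 of 54 members had fewer than 100 counts in all, and 6 had at least 10 in every library. Replicate numbers were not taken to pair the libraries, since not every pair with a shared number correlated above 0.1: among C57BL/6J libraries residuals correlated above 0.1 in 10 of 15 pairs with a shared number and 9 of 30 without one, and among isotonic libraries in 1 of 3 and 4 of 6. Shared-number pairs within control, conditioned medium and KCl ran from 0.051 to 0.555. Those of NaCl library 2 ran from −0.261 to −0.02, and residuals of the 2 NaCl libraries mirror each other by construction. With a replicate block 13, 8, 1, 5 and 0 members were called in the 5 comparisons, in the order of the report, against 13, 7, 1, 4 and 0 without it. Of all genes, 55.9%, 56.2%, 32.5%, 40% and 0% were called with the block, against 53.5%, 53.9%, 28.7%, 31.6% and 0.0156% without it. With the block, edgeR called Hist2h3c2 in KCl against conditioned medium (0.76, adjusted p = 0.036) and Hist1h1c in KCl against NaCl (0.33, adjusted p = 0.0497). In NaCl against conditioned medium Hist1h2bc (−0.006), Hist2h3c2 (−0.017) and Hist3h2a (−0.072) turned sign, as did Hist3h2a in the knockout (0.062), none of them called.

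For conditioned medium against control a stricter filter left 8 members tested, of which 6 were called, where 58.6% of all genes were called. The length slope as a covariate gave 2 members called for KCl, 2 for NaCl and 0 for KCl against NaCl. That fit called 35.5%, 37.4% and 1.61% of all genes in these comparisons. For KCl against NaCl the fit of these groups alone also gave 0, where 0.0598% of all genes were called. Leaving out 1 library gave 11 to 12 members for conditioned medium against control, 6 to 9 for KCl, 1 for NaCl, 1 to 7 for KCl against NaCl (7 without KCl library 3, 2 without NaCl library 1 and 1 without NaCl library 2) and 0 for the knockout. In the same order, those fits called 46.6% to 47.3%, 46.9% to 61%, 15.7% to 23.9%, 6.97% to 48.2% and 0% to 0.243% of all genes. The mean summed share in control was 303.9 with TMM-scaled totals. Without Hist1h2bc it was 281.2 in control, 47 in conditioned medium, 50.1 with KCl, 36.9 with NaCl, 38.9 in floxed and 40.1 in knockout cells, and over the 14 members sharing at most 20% of their windows it was 255.6, 35.9, 30.3, 24.8, 25.6 and 25. Control was thus highest under each of these.

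Single genes turned sign as follows, as log2 fold changes. The length slope as a covariate put Hist1h4i at −0.016, Hist2h2be at 0.28 and Hist2h3c2 at −0.63 for KCl against conditioned medium, and Hist1h4h at 0.37 and Hist1h4i at 0.23 for NaCl against conditioned medium. For KCl against NaCl it put Hist1h1c at −0.11, Hist1h2bg at 0.52, Hist1h4i at −0.24, Hist2h2be at 0.21, Hist2h3c2 at −1.29, Hist3h2a at −0.16 and Slbp at −0.002, and for conditioned medium against control Slbp at −0.031. KCl library 3 alone put Hist2h2be at 0.012 and Hist2h3c2 at −0.21 against conditioned medium, and Hist1h1c at −0.038, Hist1h2bg at 0.34 and Hist2h3c2 at −0.42 against NaCl. Library totals alone put Eri1 at −0.076, H1f0 at −0.25 and Slbp at −0.31 in conditioned medium against control, where the stricter filter put Slbp at −0.01, and Hist3h2a at −0.022 for NaCl. Over single libraries left out, values ran from −0.023 to 0.063 for Slbp in conditioned medium against control, and for NaCl from −0.16 to 0.046 for Hist1h4h, −0.22 to 0.13 for Hist1h4i, −0.028 to 0.42 for Hist2h3c2 and −0.11 to 0.18 for Hist3h2a. They ran from −0.51 to 0.094 for Hist1h2bg in KCl against NaCl. In the knockout they ran from −0.15 to 0.052 for Hist1h1c, −0.13 to 0.31 for Hist1h2bc, −0.56 to 0.055 for Hist1h2bg, −0.78 to 0.34 for Hist1h4h, −0.18 to 0.65 for Hist1h4i and −0.34 to 0.30 for Hist3h2a. The cause of these changes was not tested.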
